A study of Mus musculus with 2 samples.

Results

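The sphingolipid genes described here are Sptlc1, Sptlc2, Ormdl1, Ormdl2, Ormdl3, Degs1, Ugcg, Sphk1, Sphk2 and Sgpl1, 10 of the 17832 gene names carried by a pair of promoter tiling arrays. They were chosen by name, with the ratios of these arrays known. Every probe that the array design names for one of them was taken, 282 probes in all, of 237195 on array 1 and 237185 on array 2. Array 1 carried Ormdl1, Degs1, Ugcg and Sphk2, and array 2 carried the other 6 genes. Germ cells of 5 testes of adult male C57BL/6 mice, an inbred strain, were fixed with formaldehyde and sonicated. Chromatin was precipitated with an antibody against CREM (sc-440, Santa Cruz), a transcription factor that switches on genes in haploid male germ cells, or with goat IgG, the negative control of the study. The CREM precipitate carried Cy5 and the IgG precipitate Cy3. Each array was hybridised 1 time, so there were no replicates and no tests, and dye and antibody cannot be told apart. The files hold genomic DNA signals only, so the labelled cell type could not be checked against its markers. The precipitates came from mixed germ cells, in which fewer bound cells and less binding per cell cannot be told apart.

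All values are log2 of the CREM signal over the IgG signal, centred on the median of the array, so that a value of 1 means a 2-fold excess in the CREM precipitate. Of the 282 probes, 274 passed the filters on outlier and dim spots. Probes were read in windows, each the median of 3 probes next to each other whose starts were no more than 500 bp apart. A gene was called on the CREM side when its highest window reached 1, and a window at -1 or lower was counted on the IgG side as the background measured the same way. The scanner's error model gave a median error of 0.22 to 0.28 per probe across the 10 genes. In the highest windows the error was larger at Sphk2 (0.37 to 0.41) and at Ormdl3 (0.29 to 0.38). This error covers the spot and not the spread between precipitations. On array 1 the probes used had a median IgG signal of 788 and a median CREM signal of 790. On array 2 these medians were 779 and 781. In the CREM channel 96.3% and 95.5% of probes were well above background, against 77.4% and 78.5% in the IgG channel, and the number of arrays limits the precision.

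Sphingolipids are membrane lipids built on a long-chain base. Serine palmitoyltransferase, an enzyme of the endoplasmic reticulum, makes the base, the ORMDL proteins hold that enzyme back when ceramide is plentiful, and a desaturase completes ceramide. Ceramide is then glycosylated, turned into sphingomyelin or broken down to sphingosine, which sphingosine kinases phosphorylate to a signalling lipid that a lyase finally destroys. In the testis, ceramide is a known mediator of germ cell death, sphingosine 1-phosphate is known to protect germ cells, and complex glycosphingolipids are needed for spermatids to separate and mature. CREM and its relatives bind the cAMP response element, the palindrome TGACGTCA, and more weakly its core, TGACG or CGTCA.

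The letters on which the results turn are those of the strongest windows and of the starts beside them. The 9 probes below formed the highest windows of Sphk2, Ormdl3 and Sptlc1 and are written as the scanner files give them, with any core in capitals (mm9). Of the probes of these genes that could be matched to RefSeq promoter letters, 13 of 13 lay on the forward strand.
Sphk2, chr7:52972811-52972861: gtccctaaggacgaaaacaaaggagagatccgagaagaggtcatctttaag
Sphk2, chr7:52973005-52973055: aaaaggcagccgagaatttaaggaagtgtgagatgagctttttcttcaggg
Sphk2, chr7:52973169-52973213: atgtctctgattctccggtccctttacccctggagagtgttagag
Ormdl3, chr11:98448665-98448709: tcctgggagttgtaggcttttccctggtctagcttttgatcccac
Ormdl3, chr11:98448832-98448891: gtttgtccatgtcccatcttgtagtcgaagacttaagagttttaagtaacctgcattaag
Ormdl3, chr11:98449022-98449074: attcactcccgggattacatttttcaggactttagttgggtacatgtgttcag
Sptlc1, chr13:53471995-53472054: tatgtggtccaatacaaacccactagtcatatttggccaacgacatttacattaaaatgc
Sptlc1, chr13:53472097-53472156: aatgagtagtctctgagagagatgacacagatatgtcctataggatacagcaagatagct
Sptlc1, chr13:53472312-53472371: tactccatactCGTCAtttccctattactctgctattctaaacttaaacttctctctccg

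None of these 9 probes held the full element, and 1 of them, at Sptlc1, held a core. The full element did stand in the RefSeq promoters of Sphk2 and Ormdl3, between probes. The stretches below run from 80 bases before the annotated start to 20 bases from it, on the strand of the gene (minus for both, RefSeq, GRCm38.p6), with the element and any core in capitals.
Ormdl3, chr11:98587226-98587325: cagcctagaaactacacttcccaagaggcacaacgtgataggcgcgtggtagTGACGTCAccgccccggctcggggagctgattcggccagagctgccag
Sphk2, chr7:45717983-45718082: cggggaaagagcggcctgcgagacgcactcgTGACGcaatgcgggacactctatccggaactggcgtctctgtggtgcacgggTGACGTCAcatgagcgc

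Sptlc1 and Sptlc2 encode the catalytic pair of serine palmitoyltransferase, the first and rate-limiting enzyme of the pathway, and both were called, at unequal levels. Sptlc1 reached 2.21 in its highest window (probes 1.86, 2.25 and 2.21; chromosome 13, 53471995 to 53472371, mm9), a 4.64-fold excess. The 3 probes gave IgG signals of 1010, 501 and 1324 and CREM signals of 3724, 2415 and 6228. The window was centred 547 bp into the gene from its RefSeq start. Each of the 3 probes exceeded background clearly in either channel, and 96.1% of the 8661 genes of array 2 had a lower highest window. Of the 18 windows of Sptlc1, 8 were called, 7 of them in a run of overlapping windows over 1126 bp that began 107 bp into the gene. Single probes inside this run were low, with 0.05 at 129 bp and -1.04 at 1096 bp. A separate window upstream, from 1241 to 734 bp before the start, had 2.17 (probes 1.58 to 2.52). Its highest probe was not well above background in both channels. Between it and the start lies a gap of more than 500 bp between probe starts, which no window could span. Next to the start the probes disagreed, with 3.01 for the probe centred 162 bp upstream and -2.42 for the probe centred 14 bp upstream.

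Sptlc2 was lower, with 1.14 in a single called window (probes 0.98 to 1.21; chromosome 12, 88729857 to 88730413, mm9) centred 830 bp upstream of the start. The IgG signal of 1 of its 3 probes was not well above background. The call was lost with normexp background correction (0.57), with loess (0.77), with the authors' values (0.77) and in windows of 5 probes (0.98). From 18 bp upstream of the start to 526 bp into the gene the 4 probes of Sptlc2 lay between -0.98 and -0.80, on the IgG side of 0.

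The ORMDL genes encode 3 close relatives that bind and restrain serine palmitoyltransferase, and their values ranged from the top of the array to below the call. Ormdl3, a gene at which variants are associated with childhood asthma in people, had 3.36 (probes 2.20, 3.36 and 3.44; chromosome 11, 98448665 to 98449074, mm9), a 10.2-fold excess. IgG signals were 1055, 556 and 684 and CREM signals 4915, 5777 and 7501, so the CREM channel was the high one at each probe. It was 13 in the order of 8661 genes, between Ube2b at 3.37, which encodes a ubiquitin-conjugating enzyme, and 2610028A01Rik (now Pinx1) at 3.34. The probe ranges show that this order is not resolved. Called windows lay on both sides of the start, 11 in a region of 1978 bp that reached 1930 bp upstream, and 6 in a region from 246 to 1448 bp into the gene. Where the regions meet, 3 neighbouring probes lay at -1.14, -0.79 and -0.99, centred 24, 140 and 268 bp into the gene, so the ratio dipped just past the start. The first and last of them are the edge probes of the regions, and only the middle one lies between. Inside the upstream region single probes were low too, with 0.85 at 1185 bp and 0.16 at 1472 bp before the start. The profile then faded outward, to 0.65 at 2131 bp upstream and 0.05 at 2280 bp into the gene.

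Ormdl1 had 1.26 in its highest window (probes 0.30, 1.47 and 1.26; chromosome 1, 53355291 to 53355762, mm9), centred 1588 bp into the gene. The IgG signals of the 2 higher probes were 65 and 167 and were not well above background, and the scanner gave errors of 0.9 and 0.42 for them. The call was lost with normexp (0.25), loess (0.73), the authors' values (0.74), probes above background in both channels (0.61) and windows of 5 probes (0.60). At its start Ormdl1 lay on the IgG side, with -1.26 for the window of chromosome 1, 53353723 to 53354128 (probes -1.61, -1.26 and -1.13, the first of them named for Pms1). Ormdl2 was not called and had 0.69 (probes 0.54 to 0.93; chromosome 10, 128258538 to 128258939, mm9), centred 54 bp upstream of its start. The probe at 0.93 was named for 1110005A23Rik (now Sarnp). Sptlc2 at 1.14 and Ormdl2 at 0.69 were the genes just inside and just outside the call.

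**Figure D1:**
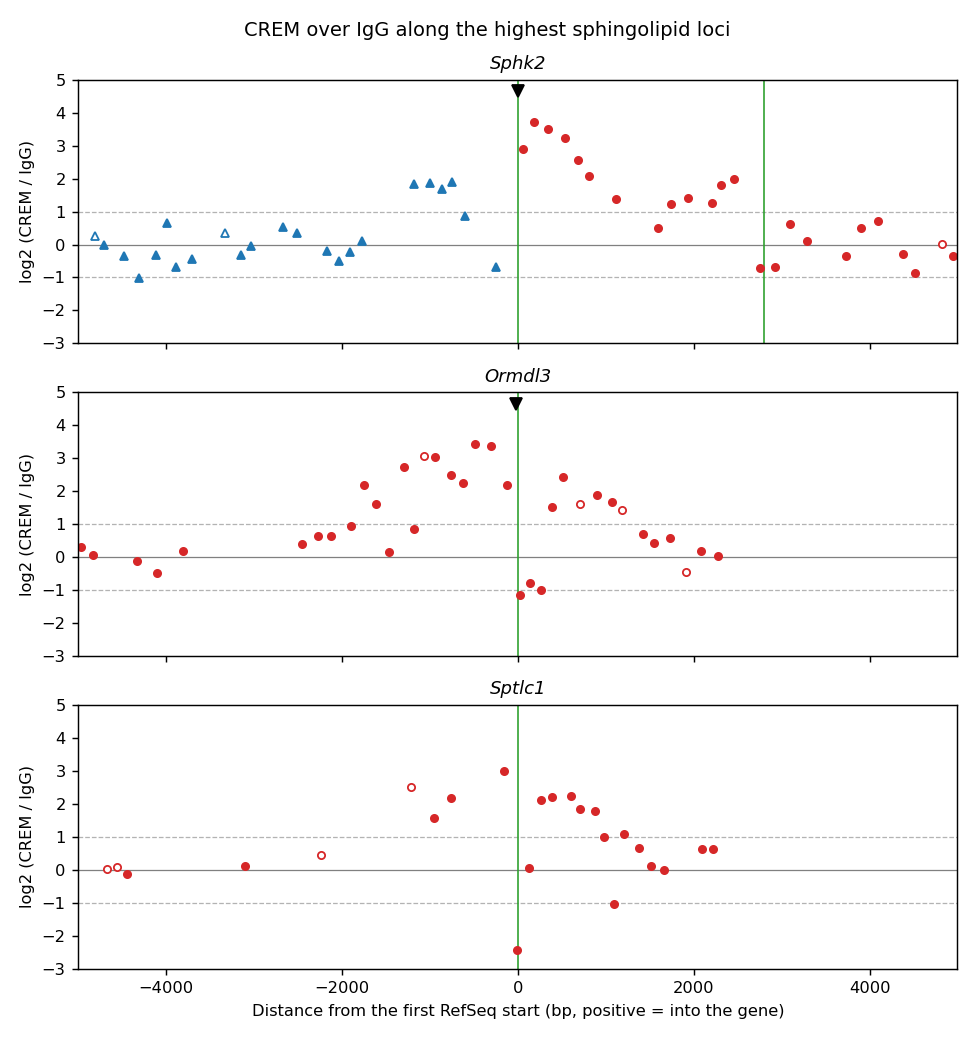
Log2 ratio of CREM over IgG (vertical axis) of each probe against its distance in bp from the first RefSeq start of Sphk2, Ormdl3 and Sptlc1 (positive into the gene). Red circles are probes named for the gene, blue triangles probes named for another gene, open symbols probes not well above background in a channel, green lines RefSeq starts, black arrowheads the full cAMP response element and dashed lines 1 and -1. Sphk2 peaks at 3.73 just inside the gene, and Ormdl3 and Sptlc1 are high on both sides of a dip at the start.

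Degs1 and Ugcg act on ceramide from either side. Degs1 encodes the desaturase that turns dihydroceramide into ceramide, and it was not called, with 0.33 in its highest window (probes 0.15 to 0.53). It lay on the IgG side instead, with 5 windows at or below -1 that covered 1218 bp around its start, from 950 bp upstream to 267 bp into the gene. The edge probes of this stretch had 0.15 upstream and -0.19 in the gene. The lowest of the 5 windows had -1.69 (probes -1.08, -2.14 and -1.69; chromosome 1, 184212723 to 184213076, mm9), with IgG signals of 1399, 4048 and 422 against CREM signals of 671, 932 and 133. With loess, with the authors' values, with normexp and with the GC trend removed Degs1 no longer had a window at -1. Ugcg encodes the ceramide glucosyltransferase that opens glycosphingolipid synthesis, and it was called at 1.25 (probes 1.12, 1.42 and 1.25; chromosome 4, 59202854 to 59203201, mm9), centred 606 bp into the gene. Its 3 probes were close to each other and clear of background on either dye, and the 3 called windows covered 851 bp. The probes at the ends of that stretch had -0.07 and 0.02. With normexp Ugcg had 0.83 and was not called. The probe centred 154 bp upstream of the Ugcg start lay at -1.87.

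The sphingosine kinases phosphorylate sphingosine, and the paralogues lay far apart. Sphk2, the nuclear and mitochondrial kinase, had the highest window of the 10 genes at 3.50 (probes 3.23, 3.50 and 3.73; chromosome 7, 52972811 to 52973213, mm9), an 11.3-fold excess. IgG signals were 1108, 3110 and 809 and CREM signals 10560, 35657 and 10894, the CREM signals being the brightest among the highest windows of the 10 genes. Sphk2 was 6 in the order of the 8666 genes of array 1, between 2010305A19Rik (now Coa7) at 3.60 and Pldn (now Bloc1s6) at 3.44, an order the probe ranges do not resolve. RefSeq gives Sphk2 a pair of starts, and the window was centred 360 bp into the gene from the upstream one. From that start the ratios were 2.91, 3.73, 3.50, 3.23, 2.56, 2.07 and 1.39 at 60, 181, 342, 536, 688, 812 and 1118 bp. The highest value stood 181 bp into the gene, and the values fell beyond it. The scanner errors at 181, 342 and 536 bp were 0.41, 0.39 and 0.37, so the place of the peak among these probes is not resolved. Further in, the ratio was 0.51 at a probe 1203 bp before the second start and rose again to 2.00 at 336 bp before it. All 13 called windows of Sphk2, of 27, joined in a region of 3049 bp that reached from 274 bp upstream of the first start to 2774 bp into the gene. The edge probes of this region were themselves below 0, at -0.69 upstream (named for Rpl18) and -0.70 at the inner end. At the second start itself the ratio lay below 0, with -0.70 for the probe centred 43 bp upstream of it and -0.67 for the probe 133 bp past it.

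Sphk1, the cytosolic kinase that growth factors bring to the plasma membrane, was not called. Its highest window had 0.51 with probes from -0.65 to 1.08, among its 5 RefSeq starts on chromosome 11 (116393075 to 116393497, mm9). Of its 44 probes, 1 reached 1 and 6 lay at or below -1. A stretch of 840 bp, from 1503 to 2342 bp past the first start, had 4 windows on the IgG side, the lowest at -1.37 (probes -0.96, -1.46 and -1.37). Sgpl1 encodes the lyase that cleaves sphingosine 1-phosphate irreversibly, and it had no window past either threshold, with 0.33 in its highest (probes 0.11 to 0.89) and -0.77 in its lowest. A single probe of Sgpl1, 378 bp upstream of the start, had 1.04. With normexp Sphk1 reached 1.01 and Sgpl1 1.06, both just past the call.

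**Figure D2:**
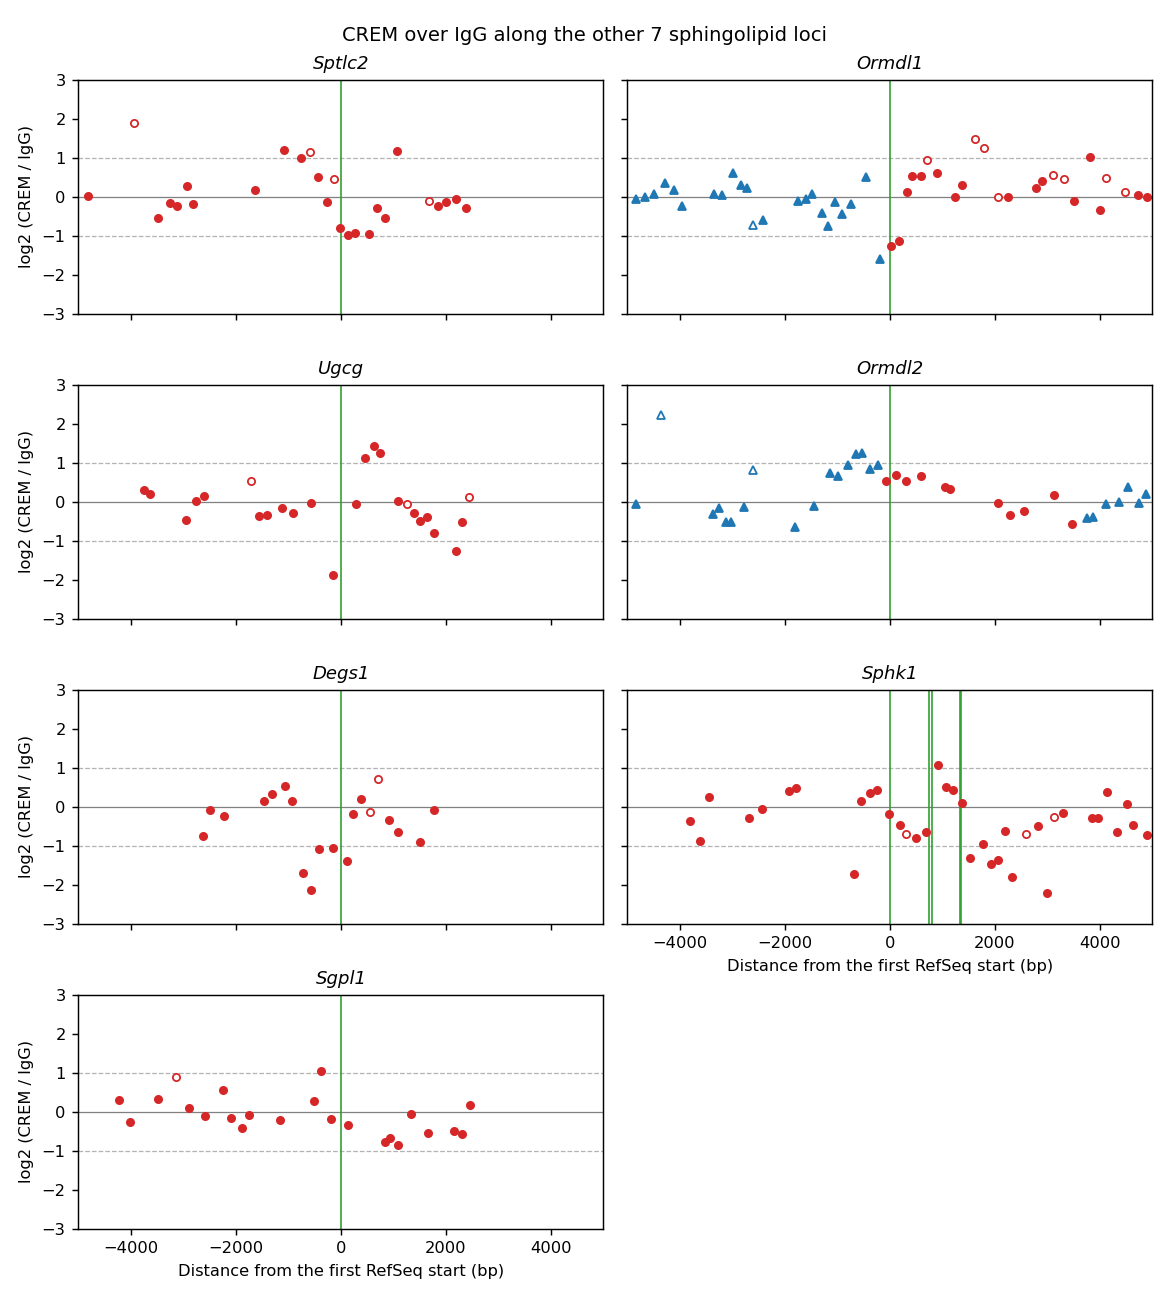
Log2 ratio of CREM over IgG of each probe against its distance in bp from the first RefSeq start, for Sptlc2, Ormdl1, Ugcg, Ormdl2, Degs1, Sphk1 and Sgpl1. Circles are probes named for the gene, triangles probes named for another gene, open symbols probes not well above background in a channel, green lines RefSeq starts and dashed lines 1 and -1. Degs1 falls to -2.14 upstream of its start, Ugcg has a narrow rise of 3 probes past its start, and the probes of Sgpl1 lie between -0.85 and 1.04.

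Counted together, 6 of the 10 genes were called on the CREM side (60%), against a background of 34.4% of 17327 genes on both arrays (33.3% on array 1 and 35.6% on array 2). At a log2 ratio of 2 or more, a 4-fold excess, stood Sphk2, Ormdl3 and Sptlc1, 3 of 10, against a background of 5.38% of genes. Sptlc1 lay below 2 with normexp (1.9), with loess (1.84) and with the authors' values (1.84). A window on the IgG side was found at Ormdl1, Degs1 and Sphk1, 3 of 10 (30%), against 33.6% of all genes. Ormdl1 had windows on both sides, as did 12% of all genes. The median highest window was 1.19, against 0.77 over all genes, and the median lowest window was -0.89 against -0.76. The genes were chosen with these ratios known, so the counts are a description. In order, Sphk2 (3.50) and Ormdl3 (3.36) were followed by Sptlc1 (2.21), then Ormdl1, Ugcg and Sptlc2 (1.26, 1.25 and 1.14), then Ormdl2 (0.69), Sphk1 (0.51), and Degs1 and Sgpl1 (0.33 each). The probe ranges of neighbours in this order overlapped, except between Sptlc1 and Ormdl1 and between Sptlc2 and Ormdl2. Windows were concentrated in the strongest genes: of the 209 windows 44 were called (21.1%, against 5.99% of all windows), 11 lay on the IgG side (5.26%, against 4.56%), and 38 of the 44 lay at Sphk2, Ormdl3 and Sptlc1. Neighbouring windows share probes and are not independent.

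**Figure D3:**
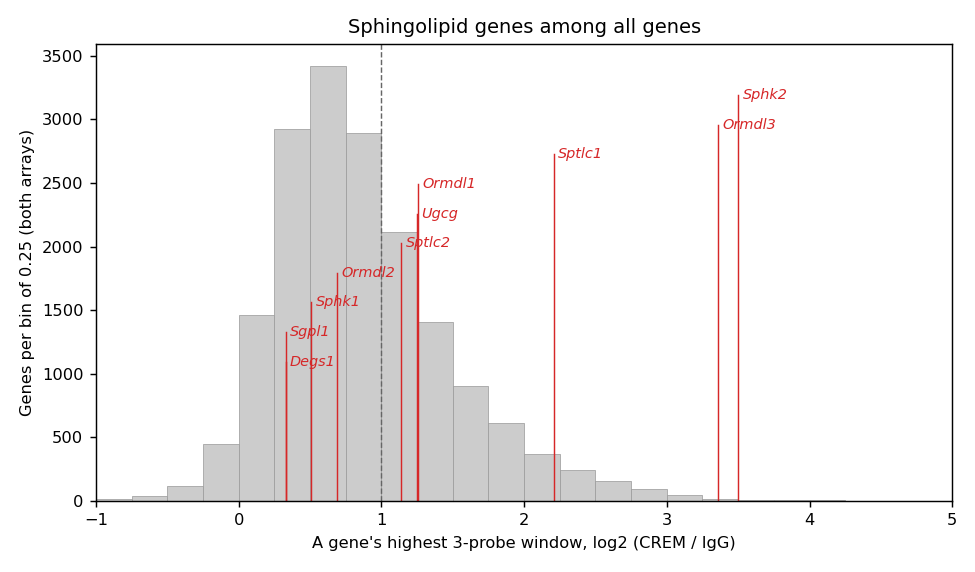
Number of genes on both arrays (vertical axis) by the log2 value of their highest window (horizontal axis, bins of 0.25), with the 10 sphingolipid genes marked in red at their own values and the call at 1 as a dashed line. Line height has no meaning beyond spacing the names. Sphk2 and Ormdl3 stand in the far right tail, Sptlc1 inside it, and 4 genes lie below the call.

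By distance to the nearest RefSeq start, Ormdl3 and Sptlc1 were high beside the start and lower on it. Sphk2 was high at its first start and low at its second. Sphk2, Ormdl3 and Sptlc1 carried most of the high probes of the 10 genes. Of 21 probes within 150 bp of a start, 3 reached 1 (14.3%) and the median was -0.34. From 1000 to 500 bp upstream 8 of 17 did (47.1%, median 0.98), and from 500 to 1000 bp into the gene 12 of 29 did (41.4%, median 0.67). Sphk2, Ormdl3 and Sptlc1 gave 7 of the 8 high probes upstream, Sptlc2 the other, and 10 of the 12 downstream, Ugcg the remaining 2. The other 7 genes had medians of 0.05 and -0.32 in these bins, with 3 probes at or below -1 in each, among them the probes of Degs1 at -2.14 and -1.69 upstream. Within 150 bp of a start the median was -0.68 for Sphk2, Ormdl3 and Sptlc1 (8 probes) and -0.18 for the other 7 genes (13 probes). The Sphk2 probes among them had 2.91 at the first start and -0.70 and -0.67 at the second. Beyond 2000 bp 1 of 50 did upstream and 1 of 52 downstream. Against these, 9.45% of all probes of both arrays reached 1. The probes within 150 bp of a start were also richer in G and C, with a median of 57.8% against 39% beyond 2000 bp into the gene. The 19 probes of these genes at or below -1 had a median GC content of 60%, against 41.1% for the 51 at or above 1. Of all probes 6.52% lay at or below -1. Across the probes of a gene, ratio and GC content correlated between -0.70 (Degs1, 20 probes) and 0.17 (Ormdl2, 11 probes), negative at 9 of the 10 genes, and neighbouring probes are not independent. The part of base composition in the dips at the starts was not tested. With the median ratio of each GC bin removed, the lowest windows of Degs1, Sphk1 and Ormdl1 rose above -1, while all 6 calls on the CREM side kept their side of 1.

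The full element stood in the promoters of Sphk2 and Ormdl3 and in none of the other 8 genes. The choice of genes did not use the element itself, but it was made with the ratios known. Over all genes ratio and element go together, as the shares below show, so this too is a description. The search of promoters was added after seeing the data. The window searched runs from 250 bases before each RefSeq start to 50 bases after it, on both strands, and the core is part of the full element. At Ormdl3 the element began 28 bases upstream of the start, and a further CGTCA began 189 bases upstream. At Sphk2 it began 3 bases after the first start, with another TGACG 49 bases upstream. Of 32817 RefSeq promoters 1.79% held the full element and 20.8% a core, each promoter being counted although a gene can have several. Counted by gene, the element stood in 369 of 12812 measured genes with a promoter entry, and a core alone in 3427. Of the 10 genes described here 2 held the element and 4 a core, with or without the element. Sptlc1 held a single CGTCA, 57 bases upstream, and Sphk1 held TGACG in the promoters of 2 of its 5 starts. Among all measured genes with a promoter entry, the 369 with a full element were called at 83.5% and reached a 4-fold excess at 39% (median highest window 1.84). The 3427 with a core alone were called at 50.3% (10.9% at 4-fold, median 1.01), and the 9016 with neither at 29.1% (2.48%, median 0.71).

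No probe covered either element. At Ormdl3 the nearest probe upstream lay 77 bp from the element and had 2.20, followed by 3.36 at 244 bp and 3.44 at 434 bp. The nearest probe on the other side lay 21 bp away and had -1.14. At Sphk2 the order was turned, with 2.91 at 27 bp, 3.73 at 148 bp and 3.50 at 306 bp on the gene's side. Upstream of the Sphk2 element the first probe, 232 bp away and named for Rpl18, had -0.69. The next had 0.88 at 582 bp and 1.89 at 728 bp. The nearest probe was thus high on one side of each element and low on the other, at unlike distances. The low probes had a GC content of 63.8% at Ormdl3 and 60% at Sphk2, and the high ones 51.1% and 48.9%. The part of base composition in this difference was not tested. Further out the low side rose too, at Ormdl3 to 1.52 at 381 bp and 2.42 at 507 bp. Among the probes themselves, 0 of 274 held the full element and 4 a core (1.46%), against 0.057% and 2.08% of all probes used.

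Divergent neighbours share the starts of 3 of the genes, so the windows there cannot be given to 1 gene. The Rpl18 start, that of a ribosomal protein gene, lies 69 bp from the first Sphk2 start on the opposite strand. Its promoter holds the same element, 79 bases upstream of the Rpl18 start. The highest window named for Rpl18 had 1.88 (probes 1.70 to 1.89; chromosome 7, 52974098 to 52974397, mm9), also called and lower than that of Sphk2. Ormdl2 and Sarnp, named 1110005A23Rik on the array, have starts 135 bp apart, and neither promoter holds the element. Sarnp was called at 1.22 (probes 0.83 to 1.26; chromosome 10, 128259034 to 128259359, mm9), on the far side of a start where Ormdl2 itself had 0.69. Ormdl1 and the mismatch repair gene Pms1 have starts 67 bp apart, and the lowest window was -1.26 for both names. Also within 5 kb of a highest window were 4930403C10Rik (now Fam83e) at Sphk2 and Dnajc14 at Ormdl2. Their highest windows had 0.23 and 0.74 and were not called. No other gene name stood within 5 kb of the highest windows of Ormdl3, Sptlc1, Sptlc2 or Ugcg.

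Of 57 further sphingolipid genes listed, 52 were measured, and 15 of them were called (28.8%, against 34.4% of all genes), with a median highest window of 0.78 against 0.77. With loess 5 of the 52 were called (9.62%, against 17.2%), and 6 were when each probe had to exceed background on both dyes (11.5%, against 20.8%). On the IgG side 21 of 52 had a window (40.4%, against 33.6%). The highest were Gla, the lysosomal alpha-galactosidase lost in Fabry disease, at 2.60 (probes 2.57 to 2.62), and Samd8, a ceramide phosphoethanolamine synthase, at 1.77 (1.60 to 1.88). Next came the acid ceramidase gene Asah1 at 1.51, the fatty aldehyde dehydrogenase gene Aldh3a2 at 1.48, and the sphingomyelinase genes Smpd4 and Smpd3 at 1.31 each. In these windows the probes bright enough in both channels numbered 3 at Smpd4 and Aldh3a2, 2 at Samd8, 1 at Gla and 0 at Asah1 and Smpd3.

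By role, 2 of 11 measured genes of base and ceramide synthesis were called (18.2%, against 34.4% of all genes). They were Sptlc3 at 1.11 (probes 0.43 to 2.08, 1 of them well above background in both channels) and Cers6 at 1.01. For sphingomyelin 4 of 8 were called (50%), and for ceramidases, ceramide kinase and transfer 1 of 8 (12.5%). For glycosphingolipids it was 5 of 16 (31.2%), and for sphingosine 1-phosphate turnover, transport and receptors 3 of 9 (33.3%). The small subunit genes of serine palmitoyltransferase, Sptssa and Sptssb, had 0.90 and 0.81 and were not called. Kdsr, whose enzyme takes the next step after serine palmitoyltransferase, had 0.37, and Degs2, the paralogue of Degs1, had 0.01. The lowest windows of the list were at B4galt6 (-2.37) and B4galt5 (-2.02), which encode lactosylceramide synthases, and at Glb1 (-2.00), the lysosomal beta-galactosidase. Of 42 genes of the list with a promoter entry, only S1pr2 held the full element. S1pr2, a receptor for sphingosine 1-phosphate, had 1.20 (probes 0.59 to 1.84).

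**Figure D4:**
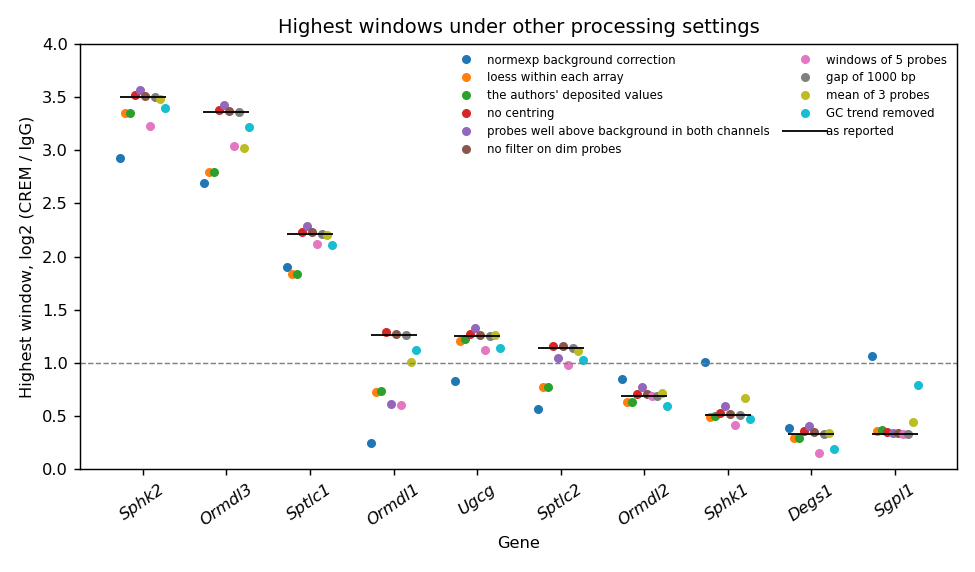
Highest window of each gene as a log2 ratio (vertical axis) as reported (black bar) and under 10 other processing settings (coloured points), genes ordered by the reported value, with the call at 1 as a dashed line. Sphk2, Ormdl3 and Sptlc1 stay above 1 in every setting shown, while Ormdl1, Ugcg and Sptlc2 fall below it in some and Sphk1 and Sgpl1 reach it with normexp.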

How the data were processed

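Per the file headers, probes are placed on mm9 and the scanner software was Feature Extraction 10.7.1.1 from Agilent. Each channel has a deposited intensity as scanned and a processed one, from which, per the file headers, background was subtracted and to which a linear dye correction was applied. Deposited log10 ratios of the processed channels carry an error from the software's error model, converted here to log2. Other deposited columns are flags. The authors also deposited a table of log2 ratios. Background subtraction and limma's loess on all spots returned them, taken in scanner row order, to within 5e-08 on array 1 and 4.93e-08 on array 2. Their medians were -0.000965 and -0.00103, so scale, centring and direction are known. R 2.10.1 and limma are the tools in the submitters' processing notes.

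Log2 of processed Cy5 over Cy3 was centred on each array's median (shifts of 0.0241 and 0.0194), with no loess. Control and outlier spots, probes without a position and probes well above background in neither channel were left out, which left 228277 and 226404 probes. Starts were placed by exact match of probe letters to RefSeq promoters (GRCm38.p6). All 15 were placed, 14 by a whole probe and the first of Sphk2 by 21 bases. Exons and introns were not used here. Array names were updated through unambiguous RefSeq synonyms.

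The members, lists and thresholds were chosen with earlier results of these data known. Named were the members, the 6 highest called and 3 lowest other sphingolipid genes, neighbours within 5 kb, order neighbours of the 2 highest members, and genes on which a sentence turns. Sptssa, Sptssb, Kdsr, Degs2, Sptlc3, Cers6 and S1pr2 were picked after their values were seen. Of the sequences this rule picks, those of the 3 highest members are printed. The search of promoters, unlike that of probes, was added after seeing the data. The calculations were tested on simulated data and ran in Python 3.11.15 and R 4.3.3 with limma 3.58.1.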

Additional observations from a re-analysis of the deposited data

How the results depend on the processing

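Results were recomputed under 11 other settings. The calls of Sphk2 (2.93 to 3.57), Ormdl3 (2.69 to 3.43) and Sptlc1 (1.84 to 2.29) held in all 10 settings that give values, with the lowest value under normexp for the first pair and loess for Sptlc1. No highest or lowest window at or past a threshold changed sign in these settings; the other called windows were not followed. The number of genes called among the 10 lay between 4 and 6, except at a threshold of 1.5, where 3 were called against 14.1% of all genes. With 4 called, the share of all genes was 17.2% (loess), 17.3% (authors' values) and 19.8% (windows of 5 probes). With 5 called it was 16.2% (normexp) and 20.8% (both channels above background), and with 6 called 30.7% to 35.7%. The genes called with normexp included Sphk1 and Sgpl1 and left out Sptlc2, Ormdl1 and Ugcg. Genes with an IgG-side window numbered 0 with normexp, 0 with the GC trend removed and 1 at the threshold of 1.5, where 3.7%, 12.6% and 13.6% of all genes had one. Of the other sphingolipid genes, 6 were called with normexp, 5 with loess, 5 with the authors' values, 6 with probes above background in both channels, 7 in windows of 5 probes and 3 at the threshold of 1.5. These are 11.5%, 9.62%, 9.62%, 11.5%, 13.5% and 5.77% of the 52 genes measured as reported, against 16.2%, 17.2%, 17.3%, 20.8%, 19.8% and 14.1% of all genes. The causes were not tested. No paired analysis was possible because each array is a single sample of other probes. Spots of a control probe, bright in both channels, had a median SD of 0.14 on array 1 and 0.12 on array 2 over 17 control probes each, which is less than the error of dim probes.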
